A study of Mus musculus with 6 samples.

Results

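The Ugt, Gst and Sult genes encode the main enzymes that conjugate small foreign molecules, and their transcript levels were compared in the olfactory mucosa of wild-type mice and of RTP1,2DKO mice, which lack both Rtp1 and Rtp2. A gene was taken as a member when its name in the deposited files began with Ugt, Gst or Sult followed by a letter or digit. The rule used names only and no measured value. It found 65 of the 24661 genes in the files, of which 21 were Ugt genes, 23 Gst genes and 21 Sult genes. The RNA-Seq experiment held 3 wild-type mice and 3 RTP1,2DKO mice, all on the C57BL/6 strain according to the labels and 21 days old. The methods describe mice of both sexes, with littermates matched for sex, and sex was not a term in any fit. Both genes were knocked out one after the other in hybrid embryonic stem cells, so that every cell of an RTP1,2DKO mouse carries the deletions, and the line was then crossed to C57BL/6. The wild-type mice were littermates and carried neither deletion. The labels call the tissue olfactory epithelium, while the methods describe the whole olfactory mucosa, which also holds glands, respiratory epithelium, glia and blood.

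Conjugation is the second phase in the removal of odorants and other foreign compounds. UDP-glucuronosyltransferases (Ugt) sit in the membrane of the endoplasmic reticulum and attach glucuronic acid, glutathione S-transferases (Gst) attach glutathione, and cytosolic sulfotransferases (Sult) attach a sulfate group taken from the cofactor PAPS. The products are more soluble in water and leave the cell through transporters. In the nose these enzymes act beside cytochrome P450 enzymes, many of which are found in sustentacular cells, the supporting cells of the olfactory epithelium, and in the glands below it. Ugt2a1 is known as a glucuronosyltransferase of the olfactory mucosa. RTP1 and RTP2 help olfactory receptors (ORs) reach the surface of olfactory sensory neurons (OSNs).

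Total estimated counts per mouse lay between 31125410 and 41636996. Normalized counts are gene counts divided by a size factor, which ranged from 0.907 to 1.147, and FPKM is the count scaled to effective transcript length and to the total count of the mouse. Rtp1 had 20522, 25301 and 13543 normalized counts in the wild-type mice and 90.6, 85.5 and 109 in the RTP1,2DKO mice. Rtp2 had 8497, 9511 and 7157 in the wild-type and 58.0, 26.2 and 51.0 in RTP1,2DKO. The defining markers of mature OSNs, sustentacular cells and Bowman glands were present in all 6 mice. Nothing in the values separates a loss of cells of one type from a lower level in each cell, since fewer cells of a type and less RNA per cell cannot be told apart in whole tissue.

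The 3 families differed in how their transcripts were shared out among members. The summed level of the Ugt genes was 3754 ± 1138 FPKM in the wild-type and 3590 ± 139 in RTP1,2DKO (SD, n = 3 mice each). The Gst genes summed to 767 ± 96.1 FPKM in the wild-type and 846 ± 95.9 in RTP1,2DKO, and the Sult genes to 547 ± 153 and 414 ± 27.2. A single gene, Ugt2a1, held between 95.3% and 96.8% of the Ugt sum in each mouse and ranked 25 of 24661 genes by its mean FPKM. In the Sult family, Sult1c1 and Sult1d1 were close in the wild-type, at 223 ± 61.8 and 224 ± 75.9 FPKM. The Gst levels were spread over many genes, and the highest of them, Gstm1, took between 19.0% and 26.1% of the Gst sum. Of the 65 members, 37 had a mean of at least 10 normalized counts, 8 of them Ugt, 20 Gst and 9 Sult genes.

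**Figure D1:**
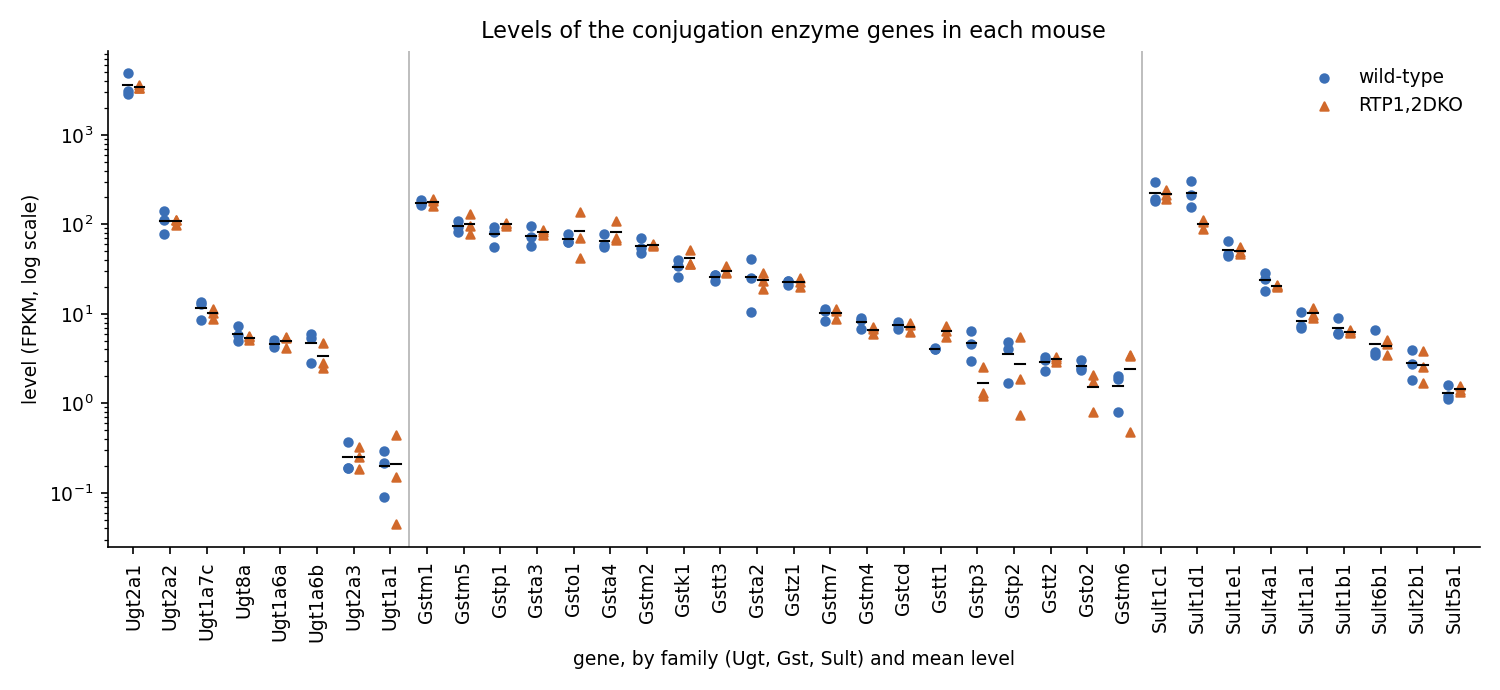
Level of each Ugt, Gst and Sult gene with a mean of at least 10 normalized counts, in FPKM on a log scale, with 1 point per mouse (circles for wild-type, triangles for RTP1,2DKO) and a bar at each group's mean. Ugt2a1 lies above all other members in every mouse, and the Sult1d1 points of the 2 groups are apart.

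At the bottom of the order, 11 members had no count in any mouse and were not tested. These were Ugt1a10, Ugt2b37, Ugt3a1, Ugt3a2, Sult2a2, Sult2a3, Sult2a5, Sult2a6, Sult2a7, Sult3a1 and Sult3a2. Many Ugt2b, Sult2a and Sult3a genes are known from the liver. No Ugt2b gene reached a mean of 10 normalized counts, and the highest value of any Ugt2b gene in a mouse was 16.7, for Ugt2b38 in RTP1,2DKO mouse 3.

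Of the 54 members tested, 1 changed between the genotypes, and it fell. The gene was Sult1d1, with an adjusted p-value under 0.05 in edgeR's quasi-likelihood test over all 22152 genes tested. This is 1.85% of the members, against 3.63% of all genes tested (3.19% lower and 0.438% higher in RTP1,2DKO). At an unadjusted p under 0.05 the test took 4 members, or 7.4%, against 12.1% of all genes. The normalized counts of the groups did not overlap for 6 members, or 11.1%, against 16.4% of all genes. The median log2 fold change was 0.07 over the members and 0.02 over all genes tested, and 0.02 and 0.01 over those with a mean of at least 10 normalized counts. By family, 0 of 17 Ugt genes, 0 of 23 Gst genes and 1 of 14 Sult genes passed the test. DESeq2 also called 0 Ugt genes, 0 Gst genes and 1 Sult gene.

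**Figure D2:**
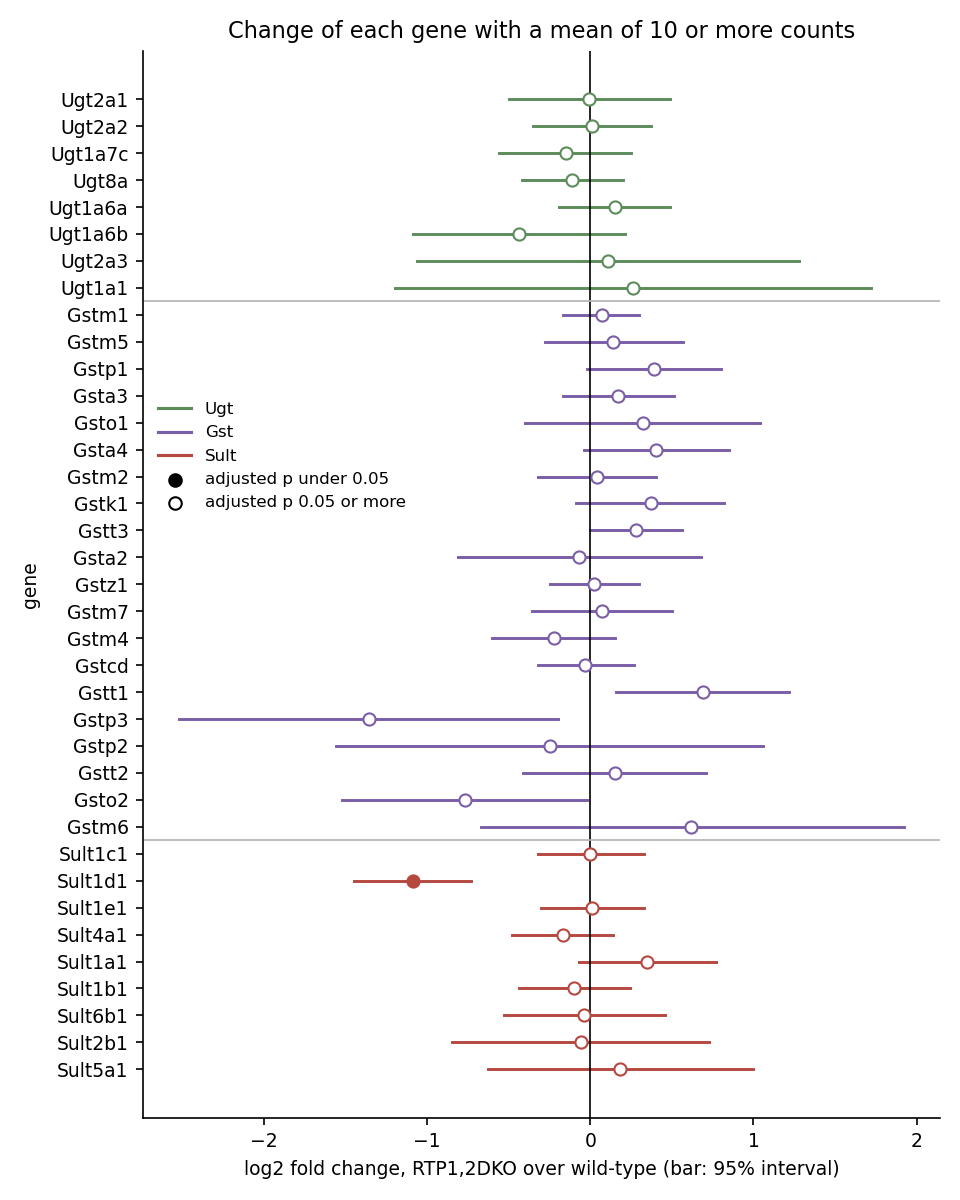
Log2 fold change of RTP1,2DKO over wild-type for the 37 members with a mean of at least 10 normalized counts, with its 95% interval as a bar, ordered by family and by level. The filled point marks the gene past an adjusted p of 0.05, Sult1d1, at -1.09, and 32 of the 37 points lie within 0.5 of 0.

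Sult1d1, a sulfotransferase of the catechol and phenol type, was the member that fell. Its normalized counts were 13719, 17961 and 10802 in the wild-type and 6743, 7126 and 6123 in RTP1,2DKO. Every RTP1,2DKO mouse lay below every wild-type mouse. The mean went from 14160 ± 3600 to 6664 ± 506 (SD, n = 3 mice each), or 0.47 times the wild-type level. The log2 fold change was -1.09 with a standard error of 0.17 and a 95% interval from -1.45 to -0.73 (adjusted p = 0.00229, edgeR's quasi-likelihood test). In FPKM it was 224 ± 75.9 in the wild-type and 102 ± 12.1 in RTP1,2DKO. The call held with each mouse left out in turn, with log2 fold changes from -1.25 to -0.88, and every word of 31 bases in its transcripts was found in no other gene of the files.

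Sult1d1 lies at chr5:87554645-87569027 on the minus strand (mm10) within a run of conjugation genes. Ugt2a2 and Ugt2a1 begin the run, with Ugt2a1 at chr5:87459490-87490871. Sult1b1, which acts on thyroid hormones and phenols, follows at chr5:87513339-87538195, and Sult1e1, the estrogen sulfotransferase, lies beyond Sult1d1 at chr5:87575969-87591594. All 5 genes are on the minus strand and together span 132 kb. Of the 5, Sult1d1 alone passed the test.

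Sult1e1 had 1102, 1451 and 1224 normalized counts in the wild-type and 1132, 1191 and 1493 in RTP1,2DKO. The groups overlapped, with a log2 fold change of 0.01 (standard error 0.15, 95% interval -0.30 to 0.33, adjusted p = 0.986 in edgeR's quasi-likelihood test). Sult1b1 had 425, 586 and 471 in the wild-type and 449, 466 and 468 in RTP1,2DKO. The log2 fold change of -0.10 had an interval from -0.44 to 0.24. The interval of each of these neighbours lies above that of Sult1d1 and does not reach it. The ratio of Sult1d1 to Sult1e1 counts within a mouse was 12.5, 12.4 and 8.83 in the wild-type and 5.96, 5.98 and 4.10 in RTP1,2DKO, and the groups did not overlap. This gave p = 0.1 in a 2-sided exact permutation test, the smallest that 3 mice against 3 can give, and 0.26 after adjustment over the 13 ratios computed, which were chosen after the values were seen.

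**Figure D3:**
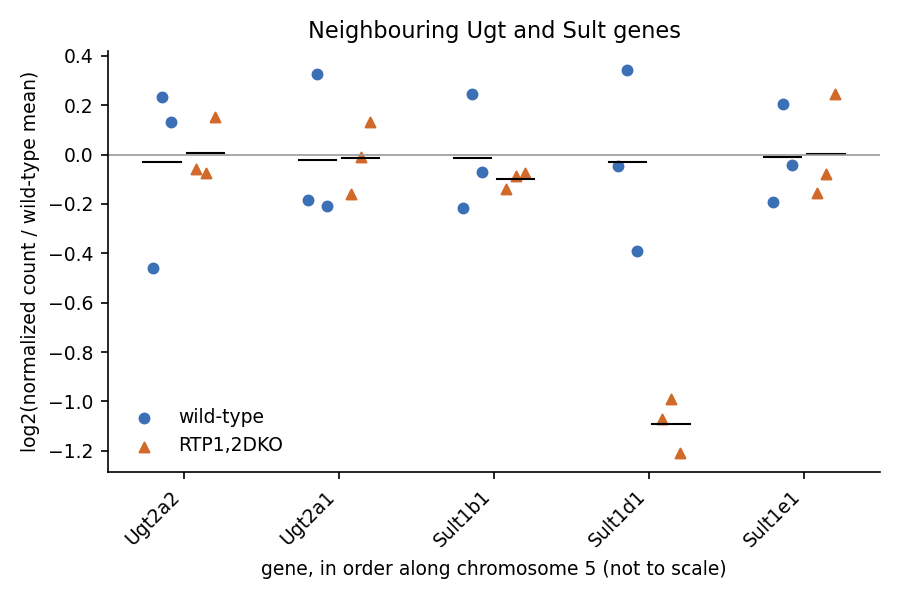
Normalized counts of the 5 neighbouring genes on chromosome 5 in each mouse, as log2 of the ratio to the wild-type mean, with circles for wild-type, triangles for RTP1,2DKO and a bar at the mean of each group's points. The points of the groups are apart for Sult1d1 and overlap for the other 4 genes.

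The starts of Sult1d1, Sult1e1 and Ugt2a1 are shown because the genes lie in the same run on chromosome 5 and Sult1d1 alone passed the test. Sult1b1 lies between Ugt2a1 and Sult1d1, and its sequences and that of Ugt2a2 are not shown. The sequences run from 250 bases before to 10 bases after the RefSeq start (GRCm38.p6), 5′ to 3′ along the gene. The capitals mark every match, on both strands, to CCCNNGGG, the core letters bound by EBF factors, and to TAATNA, a core bound by homeodomain factors such as LHX2. Both kinds of factor are known from OR promoters. The spans are chr5:87568997-87569256 for Sult1d1, chr5:87591602-87591861 for Sult1e1 and chr5:87490862-87491121 for Ugt2a1, all on the minus strand.
Sult1d1: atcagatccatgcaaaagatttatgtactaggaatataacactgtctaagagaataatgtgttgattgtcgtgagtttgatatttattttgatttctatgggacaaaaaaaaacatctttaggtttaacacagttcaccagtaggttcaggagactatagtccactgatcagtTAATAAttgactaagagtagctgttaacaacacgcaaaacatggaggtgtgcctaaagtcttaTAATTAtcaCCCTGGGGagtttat
Sult1e1: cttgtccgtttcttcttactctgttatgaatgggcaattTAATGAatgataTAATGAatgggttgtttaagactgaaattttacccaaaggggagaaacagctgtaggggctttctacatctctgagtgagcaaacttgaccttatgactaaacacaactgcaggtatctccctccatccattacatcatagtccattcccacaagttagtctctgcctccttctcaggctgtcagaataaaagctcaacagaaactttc
Ugt2a1: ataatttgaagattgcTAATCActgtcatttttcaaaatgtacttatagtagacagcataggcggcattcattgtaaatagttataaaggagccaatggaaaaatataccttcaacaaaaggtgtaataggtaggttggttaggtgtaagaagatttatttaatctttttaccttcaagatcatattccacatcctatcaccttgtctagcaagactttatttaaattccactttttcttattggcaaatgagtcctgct
The window of Sult1d1 held 1 match to CCCNNGGG, across the start itself, and 2 to TAATNA. Those of Sult1e1 and Ugt2a1 held 0 matches to CCCNNGGG, and 2 and 1 to TAATNA. The windows of Sult1b1, not shown, held 0 matches to CCCNNGGG and 0 to TAATNA, and that of Ugt2a2 held 0 and 2. RefSeq promoters, of 300 bases from 250 before to 50 after the start, were matched for 57 of the 65 members, and a gene was counted when any of its promoters held the letters. CCCNNGGG was found at 6 members (Gstcd, Gstk1, Gsto2, Sult1d1, Sult5a1 and Ugt8a), or 10.5%, against 15.4% of all 27025 genes with a promoter. TAATNA was found at 30 members, or 52.6%, against 29.5% of all genes. Of these 30, Ugt1a10, Ugt2b37, Sult2a3, Sult2a5, Sult2a6, Sult3a1 and Sult3a2 had no count in any mouse. Gst genes among them with a mean of at least 10 normalized counts were Gsta2, Gsta3, Gstm4 and Gstt3. At that level the Sult genes were Sult1a1, Sult1c1, Sult1d1 and Sult1e1. Ugt genes at that level were Ugt1a1, Ugt1a6a, Ugt1a7c, Ugt2a1, Ugt2a2 and Ugt2a3, and the rest had lower means. The antioxidant response core TGACNNNGC was found at 3 members (Gsta3, Gstm5 and Gstm7), or 5.3%, against 14.0% of all genes. The xenobiotic response core GCGTG was found at 12 members, Sult1d1 among them, or 21.1%, against 35.2% of all genes. No match in capitals overlaps another. A match to these letters is a description and not a binding site.

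The Sult family sum was lower in RTP1,2DKO with Sult1d1 in it and not without it. Its summed normalized counts were 24040, 31625 and 21658 in the wild-type and 17386, 19580 and 17562 in RTP1,2DKO. The groups did not overlap, and the mean log2 value differed by -0.49. On the FPKM scale, which weights shorter transcripts more, the groups overlapped and the difference was -0.37. Without Sult1d1, the sums were 10321, 13664 and 10857 in the wild-type and 10643, 12454 and 11439 in RTP1,2DKO, which overlapped.

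Sult1c1, the other abundant member, at chr17:53961615-53990674, had 6447, 9433 and 7323 normalized counts in the wild-type and 7124, 8787 and 7350 in RTP1,2DKO. The groups overlapped, with a log2 fold change of 0.00 (95% interval -0.32 to 0.33). Within the family's FPKM sum, Sult1d1 held 43.5%, 42.3% and 35.7% in the wild-type and 26.2%, 24.3% and 22.9% in RTP1,2DKO, with no overlap, while Sult1c1 held 37.5%, 40.8% and 44.5% and then 50.9%, 54.9% and 50.5%. These shares add up to a fixed whole, so that the larger share of Sult1c1 is not a higher level. Sult4a1, a family member known mainly from neurons of the brain, had 1875, 1468 and 1293 normalized counts in the wild-type and 1304, 1381 and 1446 in RTP1,2DKO, and the groups overlapped (log2 fold change -0.17, 95% interval -0.48 to 0.14). The other Sult genes with at least 10 counts were Sult1a1, Sult1b1, Sult6b1, Sult2b1 and Sult5a1, with means of 27.3 to 494 normalized counts in the wild-type, and none of them passed the test.

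**Figure D4:**
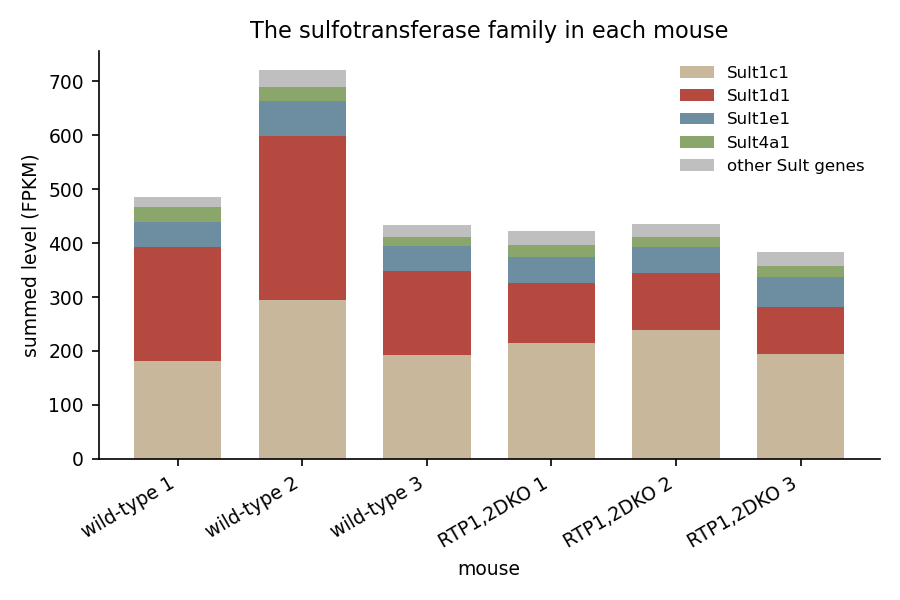
Summed FPKM of the Sult genes in each of the 6 mice, as stacked bars from 0, split into Sult1c1, Sult1d1, Sult1e1, Sult4a1 and all others. The Sult1d1 part is smaller in the 3 RTP1,2DKO mice, and wild-type mouse 2 has the tallest bar, at 721 FPKM.

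The Ugt genes gave no call, and the family sum differed between the groups by less than the spread between mice. Ugt2a1 had 222627, 316701 and 218447 normalized counts in the wild-type and 225959, 250758 and 277068 in RTP1,2DKO. The groups overlapped widely, with a log2 fold change of -0.01 (standard error 0.23, 95% interval -0.50 to 0.49, adjusted p = 0.994 in edgeR's quasi-likelihood test). A change as large as that of Sult1d1 lies outside this interval, while smaller changes in either direction lie within it. Ugt2a2 had 5646, 9147 and 8520 in the wild-type and 7473, 7385 and 8631 in RTP1,2DKO, also overlapping (log2 fold change 0.01, 95% interval -0.35 to 0.37).

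These 2 genes are read from 1 locus. Their transcripts have 7 exons each in GENCODE M21, of which 5, with 1771 bases, have the same coordinates (chr5:87459490-87465556), and each has its own first exons. Reads from the shared exons were split by kallisto, and 31.3% of the 31-base words of Ugt2a1 and 31.2% of those of Ugt2a2 were in no other gene of the files. The ratio of Ugt2a2 to Ugt2a1 counts was between 0.0254 and 0.0390 in the wild-type and between 0.0295 and 0.0331 in RTP1,2DKO, so that Ugt2a1 took nearly all counts of the locus in each mouse. Summed before the fit, the locus had a log2 fold change of -0.01 (95% interval -0.50 to 0.49).

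The Ugt1a genes, which conjugate phenols and bilirubin among others, likewise join their own first exon to the same following exons, and their split is uncertain for the same reason. As 1 sum they had 1464, 1956 and 2138 normalized counts in the wild-type and 1456, 1895 and 1813 in RTP1,2DKO. The groups overlapped, and the log2 fold change was -0.11 (95% interval -0.44 to 0.23). Ugt1a7c, listed highest among them, had 816, 1165 and 1334 in the wild-type and 792, 1136 and 1056 in RTP1,2DKO. Ugt8a transfers galactose and not glucuronic acid and makes the galactolipids of myelin. It had 623, 701 and 565 in the wild-type and 549, 557 and 641 in RTP1,2DKO, which overlapped (log2 fold change -0.11, 95% interval -0.42 to 0.20).

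The Gst genes gave no call in either direction. Gstm1, a mu class enzyme and the highest of the family, had 4578, 4453 and 4655 normalized counts in the wild-type and 4737, 4450 and 5144 in RTP1,2DKO. Its log2 fold change of 0.07 had the narrow 95% interval from -0.17 to 0.30. Gstp1, the main pi class enzyme, had 397, 537 and 716 in the wild-type and 670, 763 and 725 in RTP1,2DKO, with overlap between the groups, though each RTP1,2DKO mouse was above the wild-type mouse of its number (log2 fold change 0.39, 95% interval -0.02 to 0.80, adjusted p = 0.453 in edgeR's quasi-likelihood test). Of its 31-base words, 38.5% were shared with Gstp2, so that reads of the 2 could be exchanged, and the sum of the Gstp genes had a log2 fold change of 0.32 (95% interval -0.07 to 0.71).

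Gsta3, an alpha class enzyme, had 1678, 2516 and 2234 normalized counts in the wild-type and 2071, 2464 and 2697 in RTP1,2DKO, and the groups overlapped. Gstm5, another mu class gene, had 1019, 1244 and 1266 in the wild-type and 921, 1244 and 1735 in RTP1,2DKO, and overlapped too. It shares 11.1% of its words with an overlapping gene, 4933431E20Rik.

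Among Gst genes of lower level, 3 had groups that did not overlap and a log2 fold change of at least 0.5 in size, and all 3 missed the test. Gstt1, a theta class enzyme, had 70.3, 63.0 and 76.1 normalized counts in the wild-type and 119, 116 and 102 in RTP1,2DKO. Every RTP1,2DKO mouse was above every wild-type mouse, with a log2 fold change of 0.69 (95% interval 0.16 to 1.22, adjusted p = 0.218 in edgeR's quasi-likelihood test). Gsto2, an omega class enzyme that reduces dehydroascorbate, had 65.2, 73.5 and 66.2 in the wild-type and 50.6, 47.1 and 22.5 in RTP1,2DKO (log2 fold change -0.77, 95% interval -1.52 to -0.02, adjusted p = 0.392 in the same test). Gstp3, a pi class gene, had 16.6, 32.4 and 27.6 in the wild-type and 6.3, 14.8 and 7.8 in RTP1,2DKO (log2 fold change -1.36, 95% interval -2.52 to -0.20, adjusted p = 0.289 in the same test). Groups without overlap were found for 5 of the 37 members with a mean of at least 10 normalized counts, against 18.4% of all such genes.

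The genes that supply cofactors to the 3 families, and those that cleave the conjugates, were next compared. None of 5 genes of glucuronic acid supply and hydrolysis, of 12 genes of glutathione supply and turnover, and of 6 genes of sulfate supply and hydrolysis passed the test with edgeR or DESeq2, and 0 of the 23 had an unadjusted p under 0.05. Ugdh, which makes UDP-glucuronic acid, had 8896 ± 1736 normalized counts in the wild-type and 9650 ± 1744 in RTP1,2DKO (SD, n = 3 mice each). Papss2, which makes PAPS, had 7643 ± 515 and 7596 ± 1065, and the groups overlapped for both genes. For Gclc and Gclm, the 2 subunits of the enzyme that limits glutathione synthesis, the means were 7035 ± 581 and 2671 ± 408 in the wild-type and 6548 ± 240 and 2747 ± 135 in RTP1,2DKO. Of 7 further glutathione transferases and relatives outside the name rule, Mgst1 among them, and of 4 receptors and partners that regulate these enzymes, Ahr among them, 0 passed the test with edgeR or DESeq2, and 2 and 0 had an unadjusted p under 0.05. Over all genes tested, 12.1% had an unadjusted p under 0.05.

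The list of NRF2 targets and regulators held 2 genes of 6 that passed the test, and both fell. Of the 6, 3 had groups that did not overlap and 3 had an unadjusted p under 0.05. Over all genes tested, 3.63% passed, 16.4% had groups without overlap and 12.1% had an unadjusted p under 0.05. Nfe2l2 encodes NRF2, the transcription factor that induces many Gst genes in other tissues. It had 11515, 13146 and 11190 normalized counts in the wild-type and 7291, 7492 and 8503 in RTP1,2DKO, with no overlap (log2 fold change -0.62, standard error 0.12, adjusted p = 0.00994 in edgeR's quasi-likelihood test). Nqo1, a quinone reductase and a known target of NRF2, had 1764, 1787 and 1844 in the wild-type and 1120, 1078 and 1208 in RTP1,2DKO, also with no overlap (log2 fold change -0.66, standard error 0.11, adjusted p = 0.00421 in the same test). The call of Nfe2l2 was lost without RTP1,2DKO mouse 1 (adjusted p = 0.0655 in edgeR's quasi-likelihood test) or mouse 2 (0.0744), and that of Nqo1 held with each mouse left out. Txnrd1, another target of NRF2, overlapped between the groups, with a log2 fold change of -0.03. Hmox1 and Keap1 of the same list overlapped too, with log2 fold changes of -0.03 and 0.11. Whether the activity of NRF2 changed was not tested. Srxn1, which restores oxidized peroxiredoxins, had 753, 697 and 611 normalized counts in the wild-type and 527, 564 and 577 in RTP1,2DKO. It missed the test without overlap between the groups (log2 fold change -0.31, adjusted p = 0.392 in edgeR's quasi-likelihood test). Of 8 transporters that export conjugates, 0 passed the edgeR test, 2 had an unadjusted p under 0.05, and Abcc4 came closest, at 5605, 4983 and 4783 in the wild-type and 4336, 3603 and 3542 in RTP1,2DKO (log2 fold change -0.42, adjusted p = 0.0967 in edgeR's quasi-likelihood test). Its adjusted p was 0.0419 when the replicate number was a block, and 0.0309 with DESeq2.

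Cell type markers moved with Sult1d1 in part. Of 8 markers of mature OSNs, 7 fell, and Gng13 missed the test (log2 fold change -0.76, adjusted p = 0.0924 in edgeR's quasi-likelihood test). All 8 had groups that did not overlap, all 8 passed with DESeq2, and their summed normalized counts were between 155493 and 180617 in the wild-type and between 78808 and 85497 in RTP1,2DKO. Over all genes tested, 3.63% passed the edgeR test and 16.4% had groups that did not overlap. Of 5 markers of immature OSNs, Gap43 and Gng8 rose (log2 fold changes 0.58 and 0.91), with sums from 23085 to 27993 in the wild-type and from 31371 to 33465 in RTP1,2DKO. The call of Gap43 was lost with the replicate number as a block (adjusted p = 0.0592, edgeR), with scaling to the total count (0.129) and with 5 of the 6 mice left out in turn (all but wild-type mouse 1). That of Gng8 was lost without wild-type mouse 2 or RTP1,2DKO mouse 1 or 3, and among the mature OSN markers that of Gnal was lost without RTP1,2DKO mouse 3. Of 8 markers of sustentacular cells 0 passed the test with edgeR or DESeq2 and 0 had an unadjusted p under 0.05, and their sums ranged from 178511 to 222900 in the wild-type and from 188591 to 216017 in RTP1,2DKO. No defining marker of these lists was at 0 in any mouse.

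The size of the Sult1d1 difference can be set beside those of the 8 mature OSN markers, whose log2 fold changes lay between -1.41 for Adcy3 and -0.76 for Gng13 apart from Stoml3, which was lower. Cnga2, a subunit of the channel that opens in the cilia of OSNs, had 18089, 21238 and 16228 normalized counts in the wild-type and 9237, 9535 and 7967 in RTP1,2DKO. It differed by -1.05 on the log2 scale, without overlap. The ratio of Sult1d1 to Cnga2 counts within a mouse was 0.758, 0.846 and 0.666 in the wild-type and 0.730, 0.747 and 0.769 in RTP1,2DKO. The groups overlapped, with p = 0.9 in a 2-sided exact permutation test. A large p in this test does not show that the 2 genes fell alike, and in this design it cannot go below 0.1. Among the 8 markers, Cnga2 had the ratio nearest to unchanged, with a mean log2 difference of -0.01, and it was picked after the values were seen. The ratio to Omp, a marker of mature OSNs, was between 0.161 and 0.299 in the wild-type and between 0.155 and 0.244 in RTP1,2DKO, and overlapped too. The ratios to Gnal, Adcy3, Cnga4, Gng13 and Ano2 also overlapped, with mean log2 differences from -0.34 for Gng13 to 0.35 for Adcy3. Stoml3, a protein of OSN cilia, fell further than Sult1d1. The ratio of Sult1d1 to Stoml3 was 0.985, 0.996 and 0.710 in the wild-type and 1.39, 1.80 and 2.05 in RTP1,2DKO, and the groups did not overlap (exact permutation p = 0.1, adjusted 0.26 over the 13 ratios). The 95% interval of the Stoml3 log2 fold change, from -2.38 to -1.62, lies below that of Sult1d1. Ugt2a1 and the sustentacular markers Cyp2a5 and Cyp2g1 had groups that overlapped in level, with log2 fold changes of -0.01, 0.11 and -0.25. The part that a change in cell makeup has in the Sult1d1 result was not tested.

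**Figure D5:**
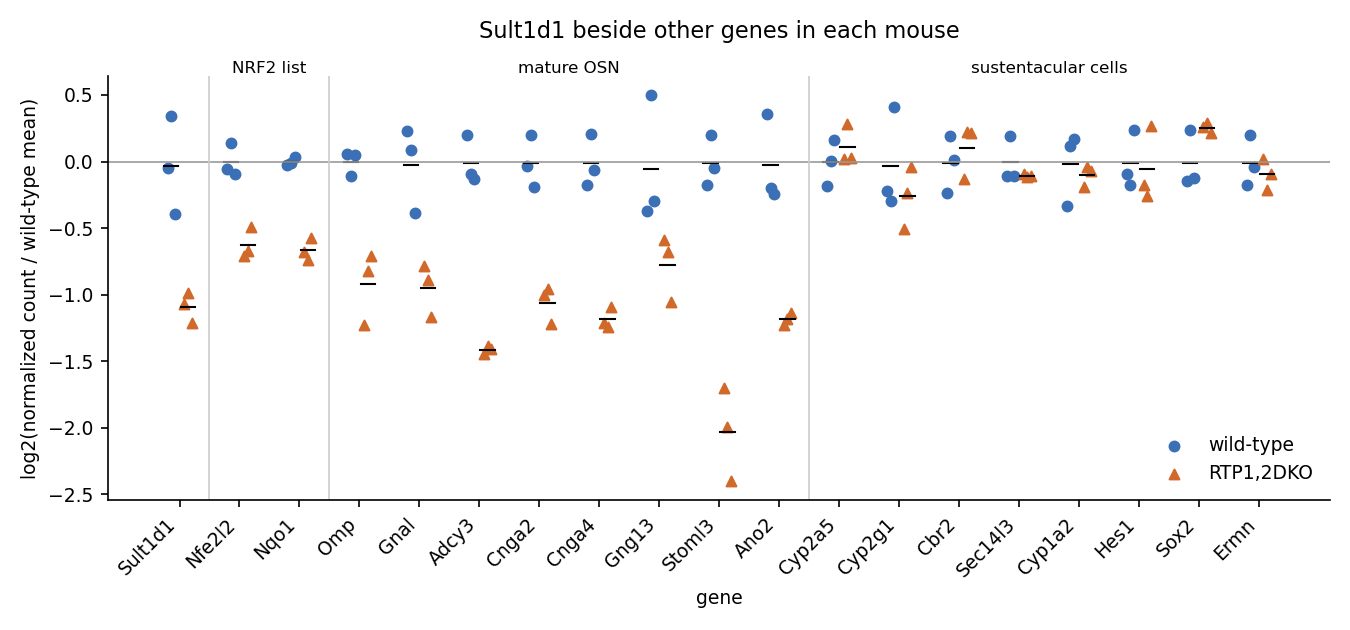
Normalized counts of Sult1d1, of Nfe2l2 and Nqo1, of the mature OSN markers and of the sustentacular cell markers in each mouse, as log2 of the ratio to the wild-type mean, with circles for wild-type, triangles for RTP1,2DKO and a bar at the mean of each group's points. The RTP1,2DKO points of Sult1d1 lie within the range of those of the mature OSN markers, and all 8 sustentacular markers overlap between the groups.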

How the data were processed

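Stranded RNA-Seq libraries were made from olfactory mucosa, 1 per mouse, for 3 mice of each genotype. The authors assigned reads to UCSC mouse transcripts with extended OR annotations using kallisto and deposited, for each mouse, the estimated count of each transcript with its length and effective length. The submitters' processing notes name mm10, and the version of kallisto is not given in the sources used here, nor whether its counting used strand. The deposited TPM values were not used for tests.

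Transcripts were joined into genes by their name without its trailing number, and their estimated counts were added up and rounded. FPKM was computed from the estimated counts, effective lengths and totals. All genes counted in 1 mouse or more entered the quasi-likelihood F-test of edgeR 4.0.16 (R 4.3.3). Size factors came from the median of ratios in DESeq2 1.42.0, as in the methods, with Benjamini-Hochberg adjustment over all genes at 0.05. The 95% intervals come from the same test. A low-count gene with all values at 0 in one group has no usable fold change and none is given. Gene positions and 31-base words came from GENCODE M21, and promoters from RefSeq (GRCm38.p6), both of the mm10 build. Tables were made in Python 3.11.15 with pandas 2.3.3 and scipy 1.17.1. On simulated counts for this comparison over 21973 genes, the test recovered 67.3% of changes of 1 and 96.8% of changes of 2 on the log2 scale, and 13.8% of its calls were false, above the nominal level. The changed genes were drawn only from genes above a floor on the mean count, which low-count members such as Gstp3 do not reach. Recovery among low-count genes was not measured.

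Replicate numbers 1 to 3 occur in each group's labels. Deviations from the group mean, compared between same-numbered mice, correlated at 0.14, 0.177 and 0.101 over 18156 genes, each over 0.1, so the numbers were taken to pair the mice, and the methods describe littermates matched for sex. Between mice of different numbers the correlations ran from -0.217 to 0.09, the highest close to 0.101, so the pairing is uncertain. The main fit and the permutation tests did not use it. The p-values cover the spread between these mice.

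The member rule used names only, but the families and gene lists were chosen with earlier results of these data known. The genes named are members past the threshold, the 4 members of each family with the highest mean FPKM, members with a mean of at least 10 normalized counts, no overlap and an absolute log2 fold change of at least 0.5, Ugt2a1 and Ugt2a2, Rtp1 and Rtp2, and from the lists the genes past the threshold and up to 3 of the highest level. Other members and list genes were named after their values were seen. The alternatives were TMM normalization, scaling to the total count, a filter on low counts, DESeq2's Wald test, the replicate block, each mouse left out, and genes with shared exons summed. The list of sulfate supply and hydrolysis held 7 genes, of which 6 were in the files. The other lists checked, with no gene past the threshold in the edgeR test, were Bowman gland, horizontal basal, ciliated, ensheathing glia, macrophage, microvillous and blood genes. In that order, 0 of 6, 0 of 4, 2 of 5, 1 of 5, 0 of 5, 0 of 4 and 5 of 5 genes had an unadjusted p under 0.05, and DESeq2 called 0, 0, 1, 0, 0, 0 and 2. Over all genes tested, 12.1% had an unadjusted p under 0.05.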

Additional observations from a re-analysis of the deposited data

How the results depend on the processing

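The count of 1 conjugation gene past the threshold, Sult1d1, was 1 under all 12 alternatives, and the adjusted p-value of Sult1d1 ranged from 1.04e-08 to 0.0221 over them. With the replicate block, which pairs the mice, the log2 fold change of Sult1d1 was -1.06, and the block called 892 genes in all against 804, with 150 against 97 higher in RTP1,2DKO. Except for Gap43 and Abcc4, given above, the block changed no call of a named gene. Over all genes the count was 667 with total-count scaling (40 higher) and 1108 with DESeq2, and it ranged from 524 to 716 with a mouse left out, 524 being without RTP1,2DKO mouse 3. None of the 5 sums of genes with shared exons or near-identical copies passed the test in any setting run, DESeq2 included, and 0 of them had an unadjusted p under 0.05 in the edgeR test.

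The family sums moved by less than the spread between mice under TMM and total-count scaling, from -0.024 to 0.009 for Ugt, 0.116 to 0.150 for Gst and -0.520 to -0.486 for Sult on the log2 scale. Members with log2 fold changes near 0 changed sign without a call. With a mouse left out, the ranges were -0.12 to 0.34 for Gstm5, -0.11 to 0.17 for Sult1c1, -0.12 to 0.13 for Sult1e1, -0.33 to 0.01 for Ugt1a7c, -0.10 to 0.19 for Ugt2a1 and -0.17 to 0.15 for Ugt2a2. Among the list genes they were -0.08 to 0.01 for Arnt, -0.38 to 0.01 for Cyp2g1, -0.07 to 0.14 for Gclm, -0.13 to 0.06 for Papss2 and -0.04 to 0.25 for Ugdh. Total-count scaling gave -0.05 for Sult1c1, -0.04 for Sult1e1 and -0.03 for Ugt2a2, and the replicate block gave 0.01 for Ugt2a1. The causes were not tested. Members with a mean under 10 normalized counts are beyond what this depth can compare.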

Other observations

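Several members were highest in RTP1,2DKO mouse 3. Gsto1, an omega class enzyme, had 1433, 1300 and 1867 normalized counts in the wild-type and 1461, 974 and 3298 in RTP1,2DKO. Gsta4, which conjugates products of lipid peroxidation, had 900, 1053 and 1707 in the RTP1,2DKO mice, and Gstk1, the mitochondrial kappa class enzyme, had 445, 492 and 737. RTP1,2DKO mouse 3 was at 1.77 times the highest of the other mice for Gsto1 and at 1.62 times for Gsta4. Of the 37 members with a mean of at least 10 normalized counts, 11 were highest and 5 lowest in this mouse, and 10 were highest in wild-type mouse 2 and 8 in RTP1,2DKO mouse 2, while 15 were lowest in wild-type mouse 1. The same mouse had the most Krt5, a keratin of basal cells, at 2414 against 925 to 1620 in the others. The part of basal cells in the Gst values was not tested.

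For Gstm4, a mu class gene chosen here after its values were seen, 2 transcripts were listed. The longer one took 13.3%, 12.2% and 5.07% of the gene's estimated counts in the wild-type and 18.1%, 20.4% and 41.0% in RTP1,2DKO. The groups did not overlap, but the values rest on 11.0 to 93.6 estimated counts per mouse. The gene itself had 266 ± 30.6 normalized counts in the wild-type and 228 ± 6.7 in RTP1,2DKO (SD, n = 3 mice each), and its log2 fold change of -0.22 had a 95% interval from -0.60 to 0.15.

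The 5 blood genes had summed normalized counts from 57895 to 94381 in the wild-type and from 92242 to 169783 in RTP1,2DKO. Hbb-bt was at 1753, 2631 and 2428 in the wild-type and at 5720, 3982 and 2827 in RTP1,2DKO, with an adjusted p of 0.0504 in edgeR's quasi-likelihood test.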
